A study of Mus musculus with 48 samples.

Results

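The genes examined here encode 9 transcription factors that establish and hold hepatocyte identity, and they were chosen by name from the 46517 mouse genes counted in the series. They are the nuclear receptors *Hnf4a* and *Nr5a2*, the forkhead factors *Foxa1*, *Foxa2* and *Foxa3*, the C/EBP factors *Cebpa* and *Cebpb*, and the homeodomain factors *Onecut1* and *Prox1*. All 9 were found in the count and TPM tables. RNA was sequenced from 5 groups: livers (n = 3), isolated primary hepatocyte preparations (n = 3), liver spheroids kept in vitro (n = 2), explants (n = 5) and naïve irises (n = 3). An explant is a spheroid that had been engrafted in the anterior chamber of the eye, on the iris of a recipient mouse, for 2 months, dissected together with the surrounding iris. Every sample carries the labels WT Albino and C57BL/6N, and no label gives a transgene or a drug treatment. By the study's methods, spheroids were formed and kept in medium with dexamethasone and insulin, also those later engrafted. Preparations met such medium during isolation, and livers were not cultured. The study worked with adult mice of both sexes, whose age and sex are not given per sample. The preparations came from perfusion of the liver with collagenase and are enriched for hepatocytes rather than pure, so spheroids and explants derive from such mixed cells. Each sample was prepared as 3 technical libraries, which were summed. The labels do not say which samples came from the same animal, so the spread between samples may be partly technical.

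These factors work as a network. HNF4A is the nuclear receptor on which much of the liver gene programme depends, and NR5A2 drives genes of bile acid and cholesterol handling. The FOXA proteins open chromatin as pioneer factors, with FOXA1 and FOXA2 acting from the earliest liver bud and FOXA3 taking a larger part in the adult liver. C/EBP alpha maintains the metabolic programme and restrains growth, while C/EBP beta responds to inflammation and injury. ONECUT1 (HNF6) acts in both hepatocytes and bile duct cells, and PROX1, which also marks lymphatic endothelium, lens and retina, limits and shapes hepatocyte metabolism.

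The total count per sample ran from 2718518 to 6789648. The hepatocyte marker list, 12 genes including *Alb* and *Apob*, summed to 20580 to 21960 TPM in livers and 2142 to 2599 TPM in irises, and all 12 were higher in explants than in irises. In no library did a factor gene exceed 0.171 counts per base, while the highest value of any gene of at least 500 bases was 1.70. Explants are mostly iris: the iris share solved from the deposited tables was 82%, 68%, 81%, 72% and 59% for explants 1, 2, 4, 5 and 6. Values of explants called corrected are TPM, a transcript share normalised for gene length and library, after subtraction of this share of the mean iris level and division by the remaining share, the formula stated in the study's methods, applied to all 5 explants.

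In native liver *Hnf4a*, *Foxa3* and *Cebpa* stood far above the other factors in TPM. On the TPM scale, which allows for gene length, *Hnf4a* was at 234, 211 and 233 in the 3 livers, *Foxa3* at 227, 152 and 221, and *Cebpa* at 180, 222 and 176. The ranges of these 3 genes overlapped, and none of them came near the next gene, *Prox1*, at 42.4, 36.1 and 50.5 TPM. *Nr5a2* followed at 28.3 to 35.1 TPM, below *Prox1* in every liver. *Foxa2* (17.8 to 26.1 TPM) and *Onecut1* (11.5 to 22.1 TPM) overlapped each other, as did *Foxa1* (8.61 to 9.18 TPM) and *Cebpb* (3.95 to 13.6 TPM), the lowest pair. *Cebpb* rested on 9 to 29 counts per liver, so its values carry a large counting error. In spheroids and in corrected explants the order changed. *Foxa3* stood above *Hnf4a* in TPM without overlap in both groups, and *Cebpa* left the top group. The order of *Foxa3* and *Hnf4a* rests on the division by gene length (2039 and 4828 bases). In counts *Foxa3* (845 and 936) was below *Hnf4a* (1457 and 1219) in spheroids. The counts of both genes overlapped in explants (127 to 496 and 186 to 565). In livers the counts of *Prox1* (430 to 643) overlapped those of *Foxa3* (439 to 682).

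**Figure D1:**
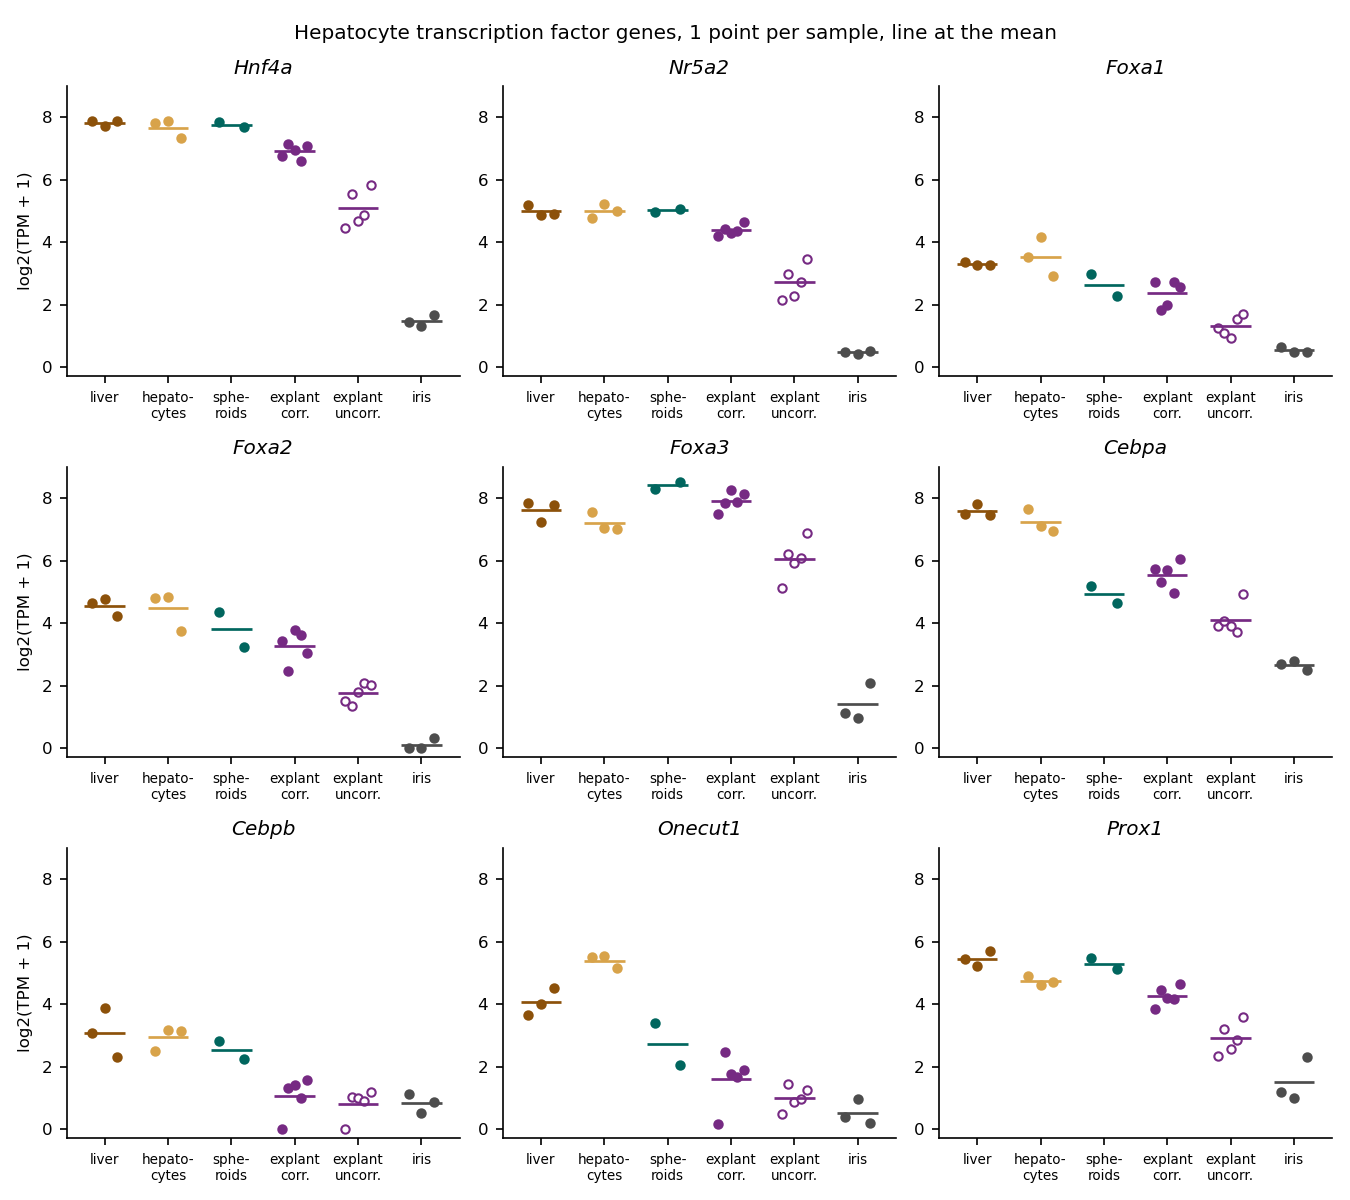
Level of each transcription factor gene, log2(TPM + 1), in livers, hepatocyte preparations, spheroids, explants after iris subtraction (filled), explants before it (open) and irises. Points are samples and lines are group means. Levels of *Hnf4a* and *Nr5a2* stay close in livers, preparations and spheroids, *Cebpa* drops in spheroids and explants, *Onecut1* is highest in the preparations, and *Foxa3* is highest in spheroids.

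Naïve iris held little of this network, and 8 of the 9 genes could be tested there against liver by edgeR. All 8 were lower in irises, where 22.1% of 15459 genes were called lower and 29.8% higher. *Nr5a2*, *Foxa1*, *Foxa2*, *Foxa3* and *Onecut1* had too few counts in irises to pass the count filter there. They entered the test through the livers, so a higher call was not open to them. To be called, a gene needed an adjusted p under 0.05 together with a log2 fold change beyond 1 in size. The log2 fold changes of irises against livers ran from −8.33 for *Foxa2* to −5.08 for *Foxa1*, with a median of −6.61, against a median of 0.11 over all genes. *Foxa2*, with 0, 0 and 1 counts in the irises, was 300-fold higher in livers over the summed counts (95% exact interval 53.4 to 11911, counting error only). The highest iris level was that of *Cebpa*, at 5.47, 5.85 and 4.61 TPM. *Hnf4a* was at 1.74, 1.46 and 2.14 TPM and *Prox1* at 1.29, 0.995 and 3.90 TPM. Iris 3, the highest for *Prox1*, also had the highest sum of retina and pigment epithelium markers (1634 TPM, against 948 and 732 in irises 1 and 2) and the lowest sum of lens markers (504 TPM, against 688 and 806). The part of these tissues in the *Prox1* value was not tested.

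The question put to the explants first was whether liver transcripts were present beyond those of the iris. Of the 9 genes, 6 passed the count filter. All 6 were called higher in explants than in irises, where 6.16% of 16764 genes were called higher and 0.316% lower. *Nr5a2*, *Foxa2* and *Foxa3* had too few counts in irises to pass the filter there. They entered through the explants, so a lower call was not open to them. The median log2 fold change of the 6 was 4.23, against 0.01 over all genes tested. In bulk tissue, more cells of a type and more RNA per cell cannot be told apart.

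*Hnf4a* had 186, 431, 245, 318 and 565 counts in explants 1, 2, 4, 5 and 6 and 14, 11 and 17 counts in the irises, a log2 fold change of 4.42 (standard error 0.49, edgeR adjusted p = 0.000646). *Foxa3* had 127 to 496 counts in explants and 3 to 11 in irises (log2 fold change 5.38, standard error 0.59, edgeR adjusted p = 0.000629), the largest change among the 5 tested factors with counts in every iris. *Nr5a2* had 37 to 124 counts against 3 or 4 (log2 fold change 4.05, edgeR adjusted p = 0.00168). For these 3 genes no explant came near an iris, and the calls held without any single sample.

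*Foxa2* was also called higher (edgeR adjusted p = 0.00454), with 7 to 18 counts per explant against at most 1 per iris, a 28.8-fold ratio of summed counts with a 95% exact interval of 4.97 to 1155. *Cebpa* rose less, from 20 to 24 counts in irises to 67 to 164 in explants (log2 fold change 1.81, edgeR adjusted p = 0.0141). *Prox1* rose from 13 to 54 counts to 63 to 195 (log2 fold change 1.86, edgeR adjusted p = 0.0449). Both of the last calls depended on single samples, and both were lost with limma-voom on all samples (adjusted p = 0.0524 and 0.0760). *Cebpa* lost its call without any one of the irises (adjusted p 0.0567 to 0.0737), and *Prox1* without explant 2, 5 or 6 or iris 1 or 2 (adjusted p 0.0560 to 0.172).

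The remaining 3 genes were too sparse for the fit across genes. *Foxa1* had 6 to 15 counts per explant and 2 or 3 per iris, a ratio of 3.42 over the summed counts (95% exact interval 1.55 to 8.95), and its groups did not overlap. *Onecut1* had 3 to 14 against 1 to 6 counts (ratio 2.40, interval 1.16 to 5.58), with overlap. *Cebpb* had 0, 3, 3, 3 and 4 counts in explants and 3, 1 and 2 in irises, a ratio of 1.04 with an interval of 0.368 to 3.33, so that no explant signal above the iris was detectable at this depth.

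*Onecut1* was the single factor gene called between isolated hepatocytes and liver. Between hepatocyte preparations and livers, 1 of the 9 genes was called higher and 0 lower with edgeR, where 0.409% of 12236 genes were called higher and 2.31% lower. At an unadjusted p under 0.05, *Onecut1* and *Prox1* passed, where 1292 of the 12236 genes were higher and 1808 lower. The median log2 fold change of the 9 was −0.01, as against 0.01 over all genes. *Onecut1* was at 44.4, 45.4 and 34.3 TPM in the preparations and 11.5, 15.1 and 22.1 TPM in the livers, so every preparation lay above every liver. Its log2 fold change was 1.48 (95% interval 0.93 to 2.03, edgeR adjusted p = 0.0310). The call was lost without preparation 2 or 3 or liver 2 (adjusted p 0.0765 to 0.136), and the direction was the same in all of these fits. *Gm20649*, a gene on the same strand that shares 2171 exonic bases with *Onecut1* (52.8% of its length), takes the same reads and rose with it, at a mean of 47.7 TPM in preparations and 21.2 TPM in livers.

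*Prox1* pointed the other way, at 28.7, 23.4 and 25.1 TPM in the preparations and 42.4, 36.1 and 50.5 TPM in the livers. The groups did not overlap, but the log2 fold change of −0.60 (95% interval −0.95 to −0.25, edgeR adjusted p = 0.0671) passed neither threshold. Markers of other liver cells were fewer in the same preparations. The 6 lymphatic endothelial markers summed to 16.3 to 19.3 TPM against 38.6 to 92.3 TPM in livers, with *Ccl21a* and *Mmrn1* at 0 counts, and the 7 cholangiocyte markers to 49.5 to 63.1 TPM against 298 to 577 TPM. Their part in the values of *Prox1* and *Onecut1* was not tested. For *Hnf4a* the interval of the log2 fold change was −0.33 to 0.32 and for *Nr5a2* −0.20 to 0.53, while that of *Cebpb* was −1.32 to 0.99. The interval of *Cebpb* is wide enough that a fall of 2-fold could have gone unseen.

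Spheroids in vitro had much less *Cebpa* and *Onecut1* transcript than livers and preparations, and no called difference in the nuclear receptors. Against preparations, 2 of the 9 genes fell and 0 rose with edgeR, where 9.11% of 12247 genes were called lower and 8.13% higher. Against livers the same 2 genes fell, where 11% of 12959 genes were called lower and 8.24% higher. The median log2 fold change of the 9 genes was −0.79 against preparations and −0.83 against livers, with medians over all genes of 0.01 in both. At an unadjusted p under 0.05, *Foxa1*, *Foxa2* and *Foxa3* also passed against preparations, and *Foxa1* and *Foxa3* against livers. Over all genes, 2388 were higher and 2452 lower at this limit against preparations, of 12247. Against livers 2837 were higher and 2817 lower, of 12959, so passing it sets no factor apart.

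*Cebpa*, the factor that holds hepatocytes in their mature metabolic state (chromosome 7 of GRCm38, 35119293 to 35121926), was at 35.8 and 23.8 TPM in the spheroids. It was at 200, 136 and 123 TPM in the preparations and 176 to 222 TPM in the livers. Both spheroid samples were far below every liver and every preparation. The log2 fold change was −2.70 against preparations (95% interval −3.29 to −2.10, edgeR adjusted p = 0.000668) and −2.83 against livers (−3.35 to −2.30, edgeR adjusted p = 0.000365). Both calls held without any single sample.

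*Onecut1* (chromosome 9, 74861921 to 74891781) was at 9.43 and 3.13 TPM in the spheroids, against 34.3 to 45.4 TPM in the preparations and 11.5 to 22.1 TPM in the livers. The log2 fold change was −3.06 against preparations (95% interval −3.88 to −2.25, edgeR adjusted p = 0.00128) and −1.52 against livers (−2.59 to −0.45, edgeR adjusted p = 0.0408). Against preparations it held without any single sample. Against livers it did not hold without spheroid sample 2 or liver 2 or 3 (adjusted p 0.0983 to 0.153), while without spheroid sample 1 *Foxa2* joined it, so that 3 genes were lower.

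*Foxa3* (chromosome 7, 19013282 to 19023538) was higher in both spheroid samples, at 315 and 369 TPM, than in every preparation (128 to 186 TPM) and every liver (152 to 227 TPM). Its log2 fold change of 0.89 against preparations had an edgeR adjusted p of 0.0229 but stayed under the fold limit, and that of 0.67 against livers had an adjusted p of 0.0502. Scaled by library size alone, or without preparation 1 or spheroid sample 1, the change against preparations was 1.08 to 1.13 and was called. *Foxa1* and *Foxa2* had log2 fold changes of −1.42 and −1.03 against preparations (edgeR adjusted p = 0.0550 and 0.110). The spheroid samples differed from each other in both genes, with 6.92 and 3.79 TPM of *Foxa1* and 19.6 and 8.49 TPM of *Foxa2*, sample 2 being the lower. *Foxa1* passed with DESeq2 (adjusted p = 0.0355), without a filter on low counts (0.00419) and with all 5 groups in one fit (0.0154).

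*Hnf4a* at 229 and 203 TPM and *Nr5a2* at 30.5 and 32.6 TPM in the spheroids lay within the range of preparations and livers. The intervals of the log2 fold changes against livers were −0.56 to 0.19 and −0.47 to 0.32. *Prox1*, at 43 and 33.9 TPM, was above every preparation (log2 fold change 0.24, edgeR adjusted p = 0.292). Spheroid sample 1 was within the range of the livers and sample 2 below it (log2 fold change −0.29, edgeR adjusted p = 0.272). *Cebpb* had 12 and 7 counts, a log2 fold change of −0.79 against preparations (edgeR adjusted p = 0.264). Cholangiocyte markers summed to 114 and 406 TPM in the spheroids and leukocyte markers to 312 and 375 TPM, both above the preparations (49.5 to 63.1 and 83.6 to 130 TPM). Their part in the lower *Cebpa* and *Onecut1* was not tested.

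The bases before the transcription start of *Cebpa*, *Onecut1* and *Foxa3*, the genes that stood apart in spheroids, are shown so that their makeup can be compared. Each is the 250 bases before a RefSeq start in GRCm38.p6, read in the direction of the gene. Any match to the motifs named below would stand in capitals.
Cebpa, chr7:35119043-35119292, + strand: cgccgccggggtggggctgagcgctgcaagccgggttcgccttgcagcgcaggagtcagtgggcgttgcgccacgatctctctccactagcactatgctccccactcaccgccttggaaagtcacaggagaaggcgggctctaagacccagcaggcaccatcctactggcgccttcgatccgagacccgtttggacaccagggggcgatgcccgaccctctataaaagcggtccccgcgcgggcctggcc
Onecut1, chr9:74861671-74861920, + strand: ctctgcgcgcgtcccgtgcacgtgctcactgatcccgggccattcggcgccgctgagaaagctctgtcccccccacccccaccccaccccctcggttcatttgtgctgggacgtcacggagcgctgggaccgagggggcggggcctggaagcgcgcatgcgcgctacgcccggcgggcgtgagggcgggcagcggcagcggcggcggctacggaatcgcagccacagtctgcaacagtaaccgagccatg
Foxa3, chr7:19023540-19023789, − strand: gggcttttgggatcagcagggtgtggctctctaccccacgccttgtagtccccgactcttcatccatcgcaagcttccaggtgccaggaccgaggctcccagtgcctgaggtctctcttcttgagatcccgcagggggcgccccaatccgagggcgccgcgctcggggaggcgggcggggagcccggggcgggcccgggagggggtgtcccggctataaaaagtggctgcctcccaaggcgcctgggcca

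The motifs searched on both strands were TGTTTAC (FOXA), TTGCNNAA (C/EBP), ATTGAT (ONECUT), CAAAGNNCA (HNF4A), CAAGGNCA (NR5A2) and GTTAAT (HNF1). They occurred in 3.17%, 9.56%, 6.72%, 5.49%, 5.53% and 6.43% of 32851 promoter windows of the same length. The windows of *Cebpa*, *Onecut1* and *Foxa3* hold none of these motifs, so no letter is in capitals. They are rich in G and C, at 66.4%, 71.6% and 68.8%, compared with a median of 52.4% over all windows. This is not particular to them, since the windows of the other members ran from 43.2% (*Nr5a2*) to 81.6% (*Cebpb*), with 67.2% in a *Foxa2* window. Of the other members' windows, that of *Foxa1* holds 1 match to the FOXA letters, the second of *Nr5a2* 1 to the C/EBP letters, the first of *Foxa2* 1 to the ONECUT letters and the upstream window of *Hnf4a* 1 to the ONECUT letters. The HNF1 letters match in another window of *Nr5a2*, another of *Foxa2* and the downstream window of *Hnf4a*. A match is a description of letters and not a bound site.

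After subtraction of the iris, explants had less *Cebpa* and *Onecut1* transcript than livers and preparations, *Hnf4a* below both, and *Foxa3* at or above their level. In limma on log2(TPM + 1), 3 of the 9 genes (*Cebpa*, *Onecut1* and *Prox1*) fell and 0 rose in corrected explants against livers, where 2.82% of 22878 genes were called lower and 10.5% higher. Against preparations *Cebpa*, *Cebpb* and *Onecut1* fell and 0 rose, where 3.05% of 22612 genes were called lower and 14% higher. At an unadjusted p under 0.05, 0 factors were higher than in livers and 1, *Foxa3*, was higher than in preparations. Over all genes, 4732 of 22878 were higher than in livers at this limit and 5643 of 22612 higher than in preparations. The median difference of the 9 genes was −1.19 against livers and −1.18 against preparations. Over all genes, which include those of iris and leukocytes, the medians were 0.59 and 0.73. The medians of the 12 hepatocyte markers were 0.31 and 0.13, and those of 24 other hepatocyte regulators −0.77 and −0.66. Both comparisons use the same explants. The smallest p that the exact permutation test allows for 5 explants against 3 samples is 0.0179.

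*Cebpa* was at 52.7, 38.5, 51.5, 29.9 and 65.0 TPM in corrected explants 1, 2, 4, 5 and 6, and every explant was below every liver (176 to 222 TPM) and every preparation (123 to 200 TPM). The difference in mean log2(TPM + 1) was −2.04 against livers (95% interval −2.70 to −1.38, limma adjusted p = 0.00319, exact permutation p = 0.0179). Against preparations it was −1.68 (−2.39 to −0.97, limma adjusted p = 0.0063, exact permutation p = 0.0179). Both calls held without any single sample.

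*Onecut1* was at 0.117, 4.47, 2.42, 2.17 and 2.74 TPM in the corrected explants, all below the lowest liver at 11.5 TPM. The difference was −2.47 against livers (95% interval −3.85 to −1.09, limma adjusted p = 0.0283) and −3.80 against preparations (−5.09 to −2.52, limma adjusted p = 0.00207). The counts behind these values were 3 to 14 per explant, and the subtraction removed 17.9% to 94.7% of the TPM. Against livers the call was lost without any one of the livers (adjusted p 0.0776 to 0.153), whereas against preparations it held without any single sample. *Prox1*, at 13.3, 21, 17.2, 16.9 and 24.1 TPM, was below every liver, with a difference of −1.19 (95% interval −1.92 to −0.46, limma adjusted p = 0.0402). That call was lost without explant 5 or any one of the livers (adjusted p 0.0702 to 0.187). Against preparations the difference was −0.48 (limma adjusted p = 0.339).

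*Hnf4a* was at 108, 139, 123, 96.2 and 134 TPM in the corrected explants, so every explant was below every liver and every preparation. The difference was −0.92 against livers (95% interval −1.37 to −0.47, limma adjusted p = 0.0164) and −0.76 against preparations (−1.26 to −0.26, limma adjusted p = 0.0432), within the fold limit in both. *Nr5a2*, at 17.2 to 24 TPM, was also below every liver and preparation, with a difference of −0.61 against livers (limma adjusted p = 0.218, exact permutation p = 0.0179). *Foxa2*, at 4.54 to 12.6 TPM, had a difference of −1.27 against livers (limma adjusted p = 0.0856) and *Foxa1*, at 2.56 to 5.56 TPM, one of −0.94 (limma adjusted p = 0.216), each without overlap.

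*Foxa3* was the exception. It was at 180, 227, 307, 235 and 281 TPM in the corrected explants, overlapping the livers at 152 to 227 TPM and the highest preparation at 186 TPM. The difference was 0.30 against livers (95% interval −0.23 to 0.83, limma adjusted p = 0.415) and 0.72 against preparations (0.20 to 1.25, limma adjusted p = 0.0620). *Cebpb* was at 0, 1.47, 1.67, 0.968 and 1.94 TPM, with a difference of −1.88 against preparations (limma adjusted p = 0.0435) and −2.03 against livers (limma adjusted p = 0.0543). With 0 counts in explant 1, where 3 counts would have given 2.34 TPM after subtraction, and at most 4 in the others, this difference rests on counts near the limit of detection. The call against preparations was lost without explant 2 or 5 or any one of the preparations (adjusted p 0.0536 to 0.178).

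Between corrected explants and spheroids in vitro, 0 of the 9 genes were called in limma, where 4.37% of 22706 genes were called higher and 0.951% lower. At an unadjusted p under 0.05, *Hnf4a* and *Prox1* were lower, as were 1141 of the 22706 genes. *Cebpa* was on average higher in explants, by 0.63 (95% interval −0.33 to 1.60, limma adjusted p = 0.478), and spheroid sample 1 at 35.8 TPM overlapped the explants. *Foxa3* had a difference of −0.49 (−1.08 to 0.09, limma adjusted p = 0.363), and every explant was below both spheroid samples. The smallest p of the exact permutation test for 5 against 2 samples is 0.0476, and the intervals of all 9 genes reach a 2-fold difference.

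**Figure D2:**
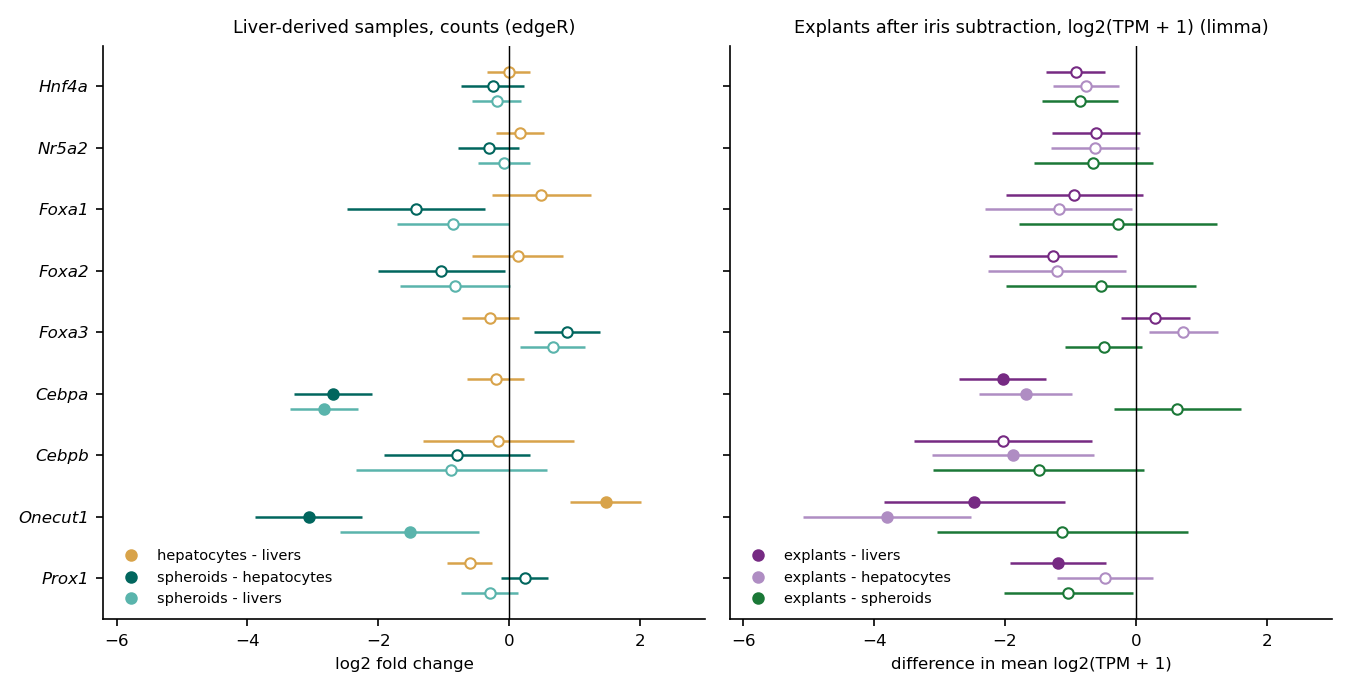
Differences between groups for each factor gene, with 95% intervals as bars. On the left are edgeR log2 fold changes of counts among preparations, spheroids and livers, on the right limma differences in mean log2(TPM + 1) of corrected explants, and filled points passed both thresholds. *Cebpa* and *Onecut1* lie left of 0 in spheroids and explants against livers and preparations, while *Foxa3* lies right of 0 in each of these 4 comparisons, a direction that turns in explants without iris correction.

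How much liver tissue an explant is taken to hold sets the level of every factor in it, and the directions given above depend on it. Before any correction, all 9 genes were called lower in explants than in livers, *Foxa3* included (−1.58), where 1666 of 21369 genes were called lower and 8563 higher. The explants were also scaled, without subtraction, to the median of 399 genes, called hepatocyte-specific here. These had at least 10 TPM in livers and at least 50 times the iris level, with no comparison to other liver cells. *Hnf4a*, *Nr5a2*, *Foxa2* and *Foxa3* meet this rule themselves. Under this scaling the median of all genes was 2.73 higher in explants, and 19700 of 27622 genes were called higher and 128 lower. *Hnf4a* then had a difference from livers of −0.12, *Nr5a2* 0.18 and *Prox1* −0.05. *Foxa3* was then called higher (1.07, limma adjusted p = 0.0191), and *Cebpa* (−0.89, adjusted p = 0.0777) and *Onecut1* (−1.25, adjusted p = 0.0583) were lower without a call. On that scale *Onecut1* stayed called against preparations (−2.59, limma adjusted p = 0.000181), and *Foxa3* was higher than in preparations (1.49, limma adjusted p = 0.00178), while *Cebpa* lost its call against them (−0.53, limma adjusted p = 0.287). In that comparison 20041 of 27515 genes were called higher and 128 lower. Other cells weigh on the corrected scale as well. Leukocyte markers summed to 1407 to 2948 TPM in corrected explants against 205 to 567 TPM in livers, 6 of the 9 being called higher, and iris markers still summed to 255 to 3708 TPM against 541 to 557 TPM. The part of these cells in the lower levels of the factors was not tested.

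**Figure D3:**
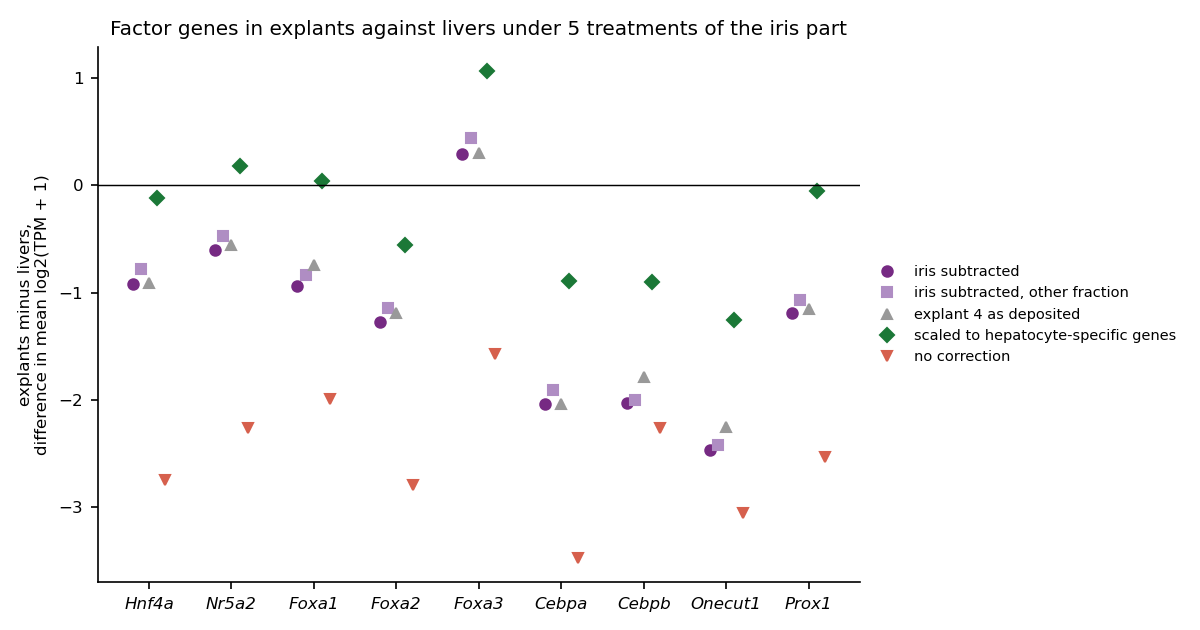
Difference in mean log2(TPM + 1) between explants and livers for each factor gene under 5 treatments of the iris part of the explants, where 0 means the level of liver. The whole set moves up or down with the treatment, and in each of the 5 *Foxa3* is the highest point and *Cebpb*, *Cebpa* and *Onecut1* lie below *Hnf4a*, apart from *Cebpb* without correction.

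A ratio between factors within a sample does not move when the whole sample is rescaled. The ratio to *Hnf4a* was chosen after the levels had been seen, and is given as a description. *Foxa3* transcripts stood at 97.3%, 72.0% and 94.5% of *Hnf4a* TPM in the livers and at 83.6%, 56.2% and 80.6% in the preparations. In spheroids they stood at 137% and 182%, and in corrected explants at 166%, 163%, 250%, 245% and 210%. No spheroid or explant sample overlapped a liver or preparation. Before subtraction the mean in explants was 202% (range 162% to 242%), beside 207% after it.

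*Cebpa* stood at 75.4% to 105% of *Hnf4a* in livers and 58.3% to 89.9% in preparations, at 15.6% and 11.7% in spheroids, and at 27.7% to 48.7% in corrected explants. The explants thus lay between the spheroids and the native cells without overlapping either. Before subtraction explants were at 34.9% to 66.0%, which overlaps the preparations. *Onecut1* went from 4.93% to 9.48% in livers and 19.5% to 21.6% in preparations to 4.11% and 1.54% in spheroids and 0.108% to 3.22% in corrected explants. *Nr5a2* was at 12.4% to 15% in livers, 11.7% to 19.5% in preparations, 13.3% and 16% in spheroids and 14.8% to 20.01% in explants, and the explants overlapped each of the other groups. *Prox1* was at 17.1% to 21.7% in livers, 10.04% to 15.7% in preparations, 16.7% and 18.8% in spheroids and 12.3% to 18% in explants. Before subtraction, which removed 10.9% to 41.4% of its TPM, explants were at 17.8% to 22.1%, above every preparation and overlapping the livers.

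**Figure D4:**
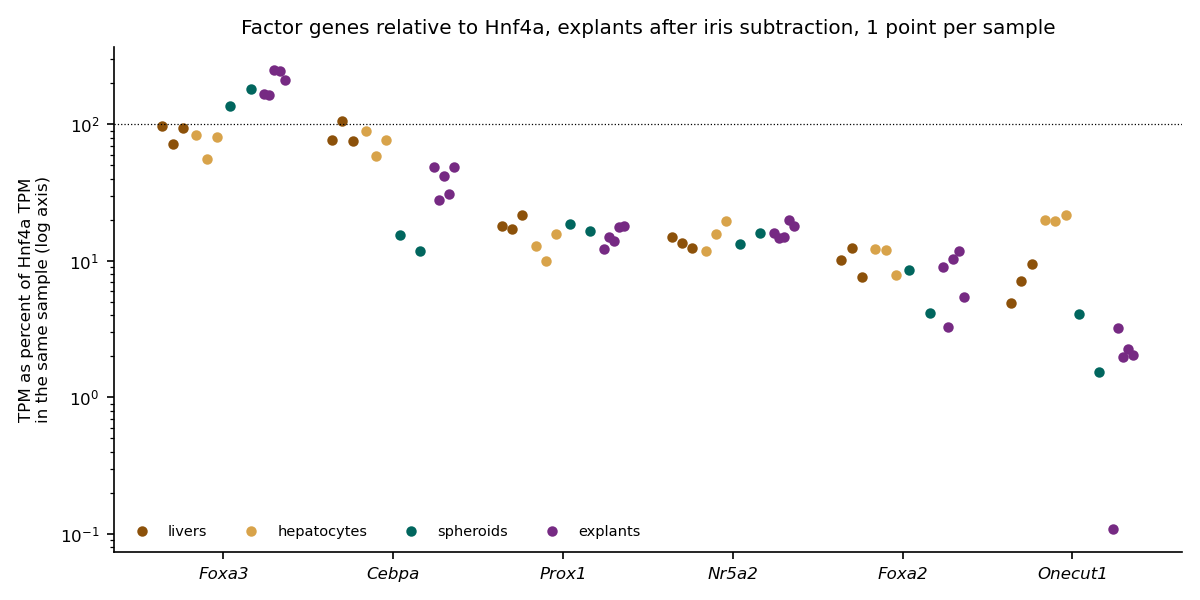
TPM of 6 factor genes as a percent of *Hnf4a* TPM in the same sample, on a log axis, with 1 point per sample and explants after iris subtraction. *Foxa3* is above 100% in every spheroid and explant sample and below it in every liver and preparation, *Cebpa* is lowest in spheroids, and *Nr5a2* stays between 11.7% and 20.01% in all groups. The 100% mark applies to TPM, which divides by gene length, and not to counts.

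Within the forkhead family the share of *Foxa3* was higher in every spheroid and explant sample than in livers and preparations, but no pair of groups passed after adjustment. Its share of the summed *Foxa1*, *Foxa2* and *Foxa3* TPM was 87.3%, 81.3% and 89.3% in livers and 83.1%, 74.5% and 87.1% in preparations. In spheroids it was 92.2% and 96.8%, and in explants 92.1%, 97.0%, 95.2%, 93.3% and 95.9%. The mean share in explants was 94.7% ± 1.95 (SD, n = 5) against 86.0% ± 4.13 (SD, n = 3) in livers, a difference of 8.71 percentage points (exact permutation p = 0.0179, two-sided, adjusted p = 0.0536 over 6 pairs of groups). Against preparations the difference was 13.1 points (exact permutation p = 0.0179, adjusted p = 0.0536). Both are the smallest p these group sizes allow, and neither passes after adjustment. Spheroids exceeded livers by 8.53 points (exact permutation p = 0.1, the smallest possible, adjusted p = 0.2), and explants and spheroids differed by 0.17 points (exact permutation p = 0.857).

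**Figure D5:**
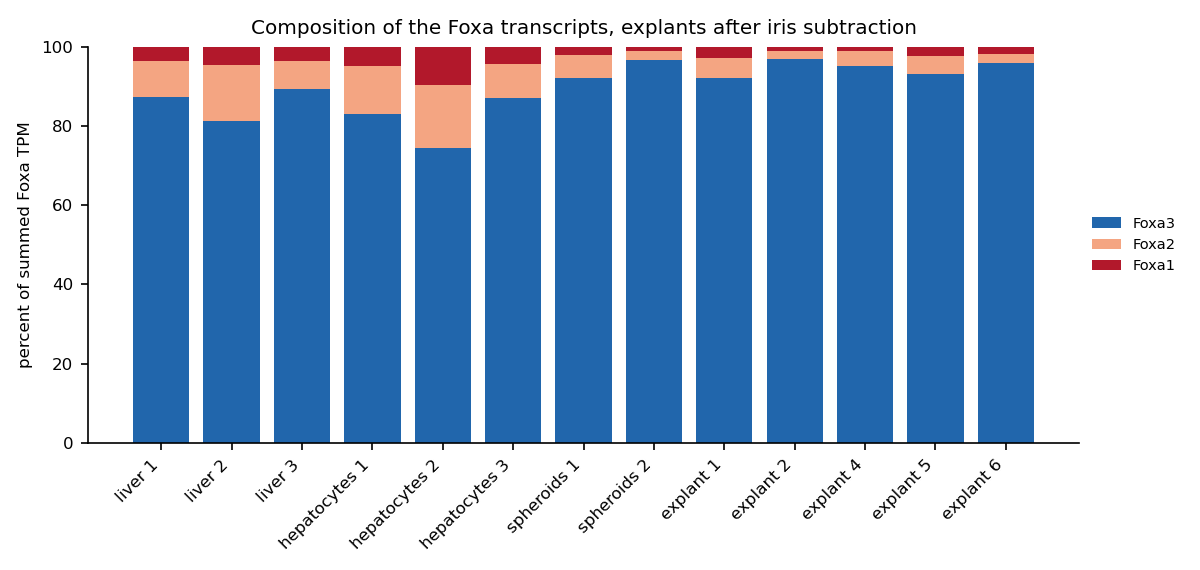
Percent of the summed TPM of the 3 *Foxa* genes taken by each, with 1 bar per sample and explants after iris subtraction. The *Foxa3* part is 74.5% to 89.3% in livers and preparations and 92.1% to 97.0% in spheroids and explants.

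The balance of the C/EBP factors was given by log2 of the ratio of *Cebpb* to *Cebpa*, with 1 added to both TPM values since *Cebpb* had 0 counts in explant 1. It was −4.43, −3.93 and −5.16 in livers, −5.15, −3.94 and −3.82 in preparations and −2.38 and −2.39 in spheroids. In corrected explants it was −5.75, −4.00, −4.30, −3.97 and −4.49, where *Cebpb* had at most 4 counts and was not detectable above the iris. The added 1 therefore sets much of these explant values, and no balance is read from them. Spheroids were higher than livers by 2.12 and than preparations by 1.92, without overlap, where the exact permutation test cannot go below 0.1 (adjusted p = 0.2 for both). Explants differed from livers by 0.01 after correction (exact permutation p = 1) and by 1.21 before it, and after correction from spheroids by −2.12 (exact permutation p = 0.0476, the smallest possible, adjusted p = 0.2). Of the 2 genes in the ratio, *Cebpa* was called between spheroids and livers and *Cebpb* was not.

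Other regulators of the hepatocyte were read from a list of 24 genes. Beside the list counts and medians that follow, the shares called and the medians over all genes are those given above for each comparison. In spheroids 10 of the 24 fell and 0 rose against livers, and 10 fell and 0 rose against preparations, with median log2 fold changes of −0.45 and −0.76. *Nr0b2*, the bile acid-induced repressor SHP and a target of NR5A2, was at 49.9 to 176 TPM in livers and at 3.55 and 20.8 TPM in spheroids, with a log2 fold change of −3.55 (edgeR adjusted p = 0.011). *Tbx3*, a repressor active in pericentral hepatocytes, changed by −2.88, *Zbtb20*, a repressor of the fetal gene *Afp*, by −1.98, and *Onecut2*, the relative of *Onecut1*, by −1.88. Against preparations the largest were *Nr0b2* (−4.92), *Tbx3* (−2.65), *Nr2f2* (−1.47) and *Nr1i3* (−1.43). Between preparations and livers 1 of 23 tested regulators fell, *Zbtb20* (−1.50, edgeR adjusted p = 0.016), and 0 rose. In corrected explants 5 of 24 fell and 1 rose against livers in limma, with a median difference of −0.77. *Ppara*, the fatty acid receptor (−2.23), *Rxra*, the shared partner of nuclear receptors (−1.97), and *Gata4* (−1.76) were among those that fell, and *Zhx2* rose (1.86), a gene whose mean was 71.5 TPM in irises and 19.3 TPM in livers. Against preparations *Mlxipl*, the carbohydrate-response factor (−2.14), and *Rxra* (−1.55) were among the 4 that fell, and *Zhx2* again rose (2.40). Between explants and spheroids 0 of 24 were called.

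Genes known as targets of the factors were read by list, and the lists differed in how many genes were called. Over all genes, 11% were called lower and 8.24% higher in spheroids against livers, and 9.11% and 8.13% against preparations. In corrected explants 2.82% were called lower and 10.5% higher against livers, and 3.05% and 14% against preparations. Of 8 target genes of C/EBP alpha, 1 fell in spheroids against livers, *Pck1*, the enzyme that commits to gluconeogenesis (log2 fold change −2.79, edgeR adjusted p = 0.0082), and 7 were not called, with a list median of −0.22 beside the −2.83 of *Cebpa* itself. Against preparations *Pck1* (−2.53) and *Ugt1a1*, which conjugates bilirubin (−1.07), fell, with a median of −0.65. In corrected explants *Pck1* (−3.00) and *Gys2*, the liver glycogen synthase (−1.47), fell against livers, and against preparations 0 of the 8 were called. The list medians were −0.67 and −0.78, beside 0.59 and 0.73 over all genes. Of 14 target genes of HNF4A, *Otc*, a urea cycle enzyme (−2.35), and *Slc27a5*, a bile acid-CoA ligase (−1.42), fell in spheroids against livers, with a median of −0.42. Against preparations 4 of the 14 fell, with a median of −0.72. In corrected explants 1 of the 14 fell against livers, *Creb3l3* (−1.04), with a median of −0.43, and 2 fell against preparations, with a median of −0.52. *Otc* was higher in explants than in spheroids (1.93, limma adjusted p = 0.0049). All 14 rose in explants over irises, with a median of 4.41, where 6.16% of all genes were called higher.

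Of 7 target genes of NR5A2, *Nr0b2* and *Abcg8*, a sterol exporter (−1.72), fell in spheroids against livers, 1 rose and 4 were not called, with a median of −1.32. Against preparations 2 fell, with a median of −1.63, and in corrected explants 0 of 7 were called against livers or preparations. The list medians in explants were −0.83 against livers and −0.99 against preparations. Of 6 FOXA target genes, *Igfbp1* (3.34) and *Afp*, the fetal albumin relative (1.72), rose and *Pck1* fell in spheroids against livers. In corrected explants 1 of the 6 fell against livers, with a list median of 0.53, and 0 were called against preparations (median −0.11). Of 8 acute phase genes that respond to C/EBP beta, 4 fell in spheroids against livers, *Saa2* (−5.26), *Saa1* (−4.31), *Hamp* (−4.20) and *Orm1* (−3.11), and *Lcn2* rose (1.74). In corrected explants 1 of the 8 was called against livers, the interleukin-1 antagonist *Il1rn*, which rose (2.61, limma adjusted p = 0.033). The list medians in explants were −0.32 against livers and −0.14 against preparations.

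Across all 16 samples before correction, each factor's profile was matched to those of 13658 genes with a mean of at least 5 TPM, by Pearson's r of log2(TPM + 1). These r values mainly follow the share of liver tissue in a sample and are given as a description. *Hnf4a* was closest to *Tmprss6* (0.997), the hepatocyte protease that restrains hepcidin, and *Hpn* (0.996), and *Nr5a2* to *Cideb* (0.996) and *Nop9* (0.995). *Foxa3* was closest to *Kng2* (0.991) and *Abcb4* (0.990), the canalicular phospholipid exporter, *Foxa2* to *Xylb* (0.982) and *Slc39a14* (0.978), and *Foxa1* to *Acads* (0.976) and *Sema4g* (0.973). *Cebpa* was closest to *Nherf1* (0.984) and *Onecut2* (0.984), and *Prox1* to *Nr1h4* (0.978), which encodes the bile acid receptor FXR, and *Vwce* (0.977). *Onecut1* was closest to *Gm20649* (0.992), with which it shares reads, and *Pex5* (0.977). *Cebpb*, with the fewest counts, had the weakest matches, *Uqcrq* (0.947) and *Etfbl* (0.946).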

How the data were processed

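Sequencing reads of 16 samples, 48 Smart-seq3 libraries, were aligned by the authors with TopHat2 to GRCm38 (mm10), stripped of duplicates with UMI-tools and Samtools, and assigned by featureCounts to exons without strand, counting a read for each gene it overlaps. The authors deposited raw counts, TPM derived from those counts, and a signal for explants, TPM with an iris share subtracted. In the deposited column of explant 4 the share had been deducted from the iris mean rather than multiplied with it, so the stated formula was reapplied to all explants. *Cebpb* shares 312 bases with the antisense gene *Peds1*, and *Prox1* 133 bases with *Prox1os*, and such reads cannot be told apart.

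Counts summed over technical libraries went into the quasi-likelihood test of edgeR 4.0.16 (R 4.3.3), after filterByExpr and with TMM factors, and corrected TPM with limma 3.58.1 (trend) on log2(TPM + 1), which understates changes of low genes, over genes with a mean of at least 1 TPM in either group. Calls required a Benjamini-Hochberg adjusted p under 0.05 over all genes tested and an absolute log2 fold change over 1. Permutation tests were exact and two-sided, and those of single factors were not adjusted. Intervals on summed counts are Clopper-Pearson and cover counting error only. Alternatives were DESeq2 1.42.0, limma-voom, RLE or library size scaling, no filter, all groups in one fit, technical library a alone, a replicate block, pseudocount 0.1, the deposited column of explant 4, non-negative least squares fractions, TPM before correction, scaling to hepatocyte-specific genes, and each sample left out. Tests were checked on simulated data. The genes and lists were chosen with earlier results of these data known. Named genes are the 9 factors, the 2 genes most correlated with each, and up to 4 called genes with the largest change per list and comparison. Promoter windows come from RefSeq (GRCm38.p6, all 9 genes matched, 14 windows). Protein sequences were not used here. A few genes of the lists are not reported here.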

Additional observations from a re-analysis of the deposited data

Results flagged for a closer look

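Among the 5 explants, 20 series of values (the 9 factors before and after subtraction, the C/EBP ratio and the *Foxa3* share) were screened for a sample far from the others, which chance alone would flag in about 1 of 20. A single value stood apart. Before subtraction *Cebpa* was at 29.8 TPM in explant 6 and at 12.2 to 15.9 TPM in the other 4 explants. Explant 6 also had the smallest iris share, 59%, and after subtraction its 65.0 TPM was within the spread of the group, next to 52.7 TPM in explant 1.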

How the results depend on the processing

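Of 984 recomputed values of single factors, 863 kept direction and call, 53 lost a call, 37 gained one and 31 changed sign, and the cause was not tested. The calls for *Cebpa* in spheroids held under every alternative.
In hepatocyte preparations against livers, members called higher numbered 0 with limma-voom and with technical library a alone. *Hnf4a*, near 0, became 0.0013 (DESeq2), 0.0009 (RLE factors), 0.0058 (no filter) and 0.0553 (all groups in one fit), and *Foxa2* −0.0169 (library a). Library size scaling gave spheroids 1 gene higher than preparations, *Foxa3* (1.131), and *Hnf4a* (0.0063) changed sign without a call. It gave 1 gene lower in spheroids than livers, *Cebpa*, as did library a, with which *Nr5a2* (0.06) changed sign without a call.
In explants against livers, 1 gene was lower with the deposited column of explant 4, where 300 of 22939 genes were. Before correction 9 were lower (*Foxa3* at −1.5778), where 1666 of 21369 genes were, and the exact permutation test gave 5. With hepatocyte-specific scaling 1 was higher, *Foxa3*, where 19700 of 27622 genes were, and 0 lower, where 128 were. *Nr5a2* (0.1849) and *Foxa1* (0.0431) changed sign there without a call. Against preparations, 9 were lower before correction (*Foxa3* at −1.1537), where 1502 of 21135 genes were, and 5 by the exact test. With that scaling 1 was higher, *Foxa3*, where 20041 of 27515 genes were, and 1 lower, *Onecut1*, where 128 were. *Hnf4a* (0.0358), *Nr5a2* (0.1664) and *Prox1* (0.6575) changed sign there without a call. Against spheroids, 8 were lower before correction, where *Cebpa* (−0.807) changed sign without a call, and 2 by the exact test. With that scaling 1 was higher, *Cebpa*. Those that changed sign there without a call were *Nr5a2* (0.1413), *Foxa1* (0.7174), *Foxa2* (0.1803), *Foxa3* (0.2738), *Onecut1* (0.0951) and *Prox1* (0.1007). Counts by the exact test rest on its unadjusted p, run on the 9 factors alone with the same fold limit. They are not calls as defined elsewhere, and no share over all genes stands beside them.
The difference in the C/EBP log2 ratio between explants and preparations was 1.0054 before correction and 0.3958 from counts, and against livers −0.0929 with least squares fractions. The *Foxa3* share in explants less spheroids was −0.2903 before correction and −0.587 from counts.
Leaving out 1 sample at a time gave 0 to 1 genes higher in preparations than livers and in spheroids than preparations, 1 to 3 lower in spheroids than livers and 1 to 4 lower in explants than livers. The C/EBP ratio ran from −0.625 to 0.1118 (explants against preparations), −0.3193 to 0.3185 (explants against livers) and −0.1196 to 0.6319 (preparations against livers), and the *Foxa3* share of explants less spheroids from −2.0955 to 2.4424. Log2 differences of factors that changed sign ran from −0.0881 to 0.1444 for *Hnf4a*, −0.0251 to 0.4142 for *Foxa2* and −0.4976 to 0.4151 for *Cebpb* in preparations against livers, from −0.2651 to 0.0543 for *Nr5a2* in spheroids against livers, and from −0.6306 to 0.095 for *Foxa1* and −1.0916 to 0.0243 for *Foxa2* in explants against spheroids, none of them called.
Deviations of samples with the same number from their group means were weakly correlated (−0.126 to 0.192 over 13788 genes). With so few samples per group, these correlations cannot tell whether a number marks a shared animal. With the replicate number as a block, 4 genes were lower in spheroids than preparations, 1 lower in spheroids than livers, 5 higher in explants than irises (without *Foxa2*), and 0 lower in explants than livers or preparations, fits in which explants 4, 5 and 6 share their number with no sample of the other group and add nothing to the difference.
Low counts limit *Cebpb*, *Foxa1*, *Foxa2* and *Onecut1* in explants, and 2 spheroid samples limit every comparison with them.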
